A study of Mus musculus with 8 samples.

Results

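The genes described here are Lcn2 and 9 genes of cellular iron handling, Steap4, Cp, Fth1, Ftl1, Tfrc, Trf, Slc40a1, Slc11a2 and Hmox1. They were taken by symbol from a table of 21878 genes, in which all 10 were found. RNA was sequenced from wild-type astrocytes of newborn C57BL/6 mice, in 4 untreated libraries and in 4 libraries treated with a cocktail of IL-1α, TNFα (both inflammatory cytokines) and C1q, the recognition protein of the complement cascade. The cocktail was meant to turn the astrocytes into a reactive form that carries the complement fragment C3d. Dose, length of treatment and number of animals are not stated in the labels. For 3 of the cocktail libraries the treatment label spells C1q with another digit, and the titles were followed. The p-values measure the spread between libraries, which may be technical. Values are FPKM, fragments scaled to the length of the gene and the size of the library, so levels of different genes can be set side by side.

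Iron enters most cells on transferrin (Trf), which the transferrin receptor (Tfrc) carries into endosomes. There a reductase of the STEAP family turns ferric into ferrous iron, and the divalent metal transporter Slc11a2 moves it into the cytosol. Ferritin, a shell of heavy (Fth1) and light (Ftl1) chains, stores the iron, and ferroportin (Slc40a1) exports it with the help of ceruloplasmin (Cp), a ferroxidase that astrocytes carry on their surface. Heme oxygenase 1 (Hmox1) frees iron from heme. Lipocalin 2 (Lcn2) is a secreted protein of inflammation that binds iron held by siderophores.

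Several of these messages carry an iron-responsive element, a hairpin bound by iron regulatory proteins when iron is low. In the 5′ untranslated region it is known to block translation, and in the 3′ untranslated region to protect the message. The GENCODE M21 transcripts of GRCm38 were searched for a C, a stem of 5 bases, the loop CAGTGN with a last base other than G, and 5 bases that pair with the stem, G and U pairs included. Matches lay in the 5′ region of 3 of the 10 genes and in the 3′ region of 1. Among 21875 genes searched, 0.096% had a match in the 5′ and 0.448% in the 3′ untranslated region. The elements are printed because they show which members hold this pattern and on which side of the coding sequence, with the loop in capitals.
Fth1, 5′ region, chr19:9982732-9982760, + strand: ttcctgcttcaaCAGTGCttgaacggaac
Ftl1, 5′ region, chr7:45459779-45459807, - strand: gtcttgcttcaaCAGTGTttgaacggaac
Slc40a1, 5′ region, chr1:45925465-45925493, - strand: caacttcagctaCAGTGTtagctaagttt
Tfrc, 3′ region, element 1, chr16:32631219-32631247, + strand: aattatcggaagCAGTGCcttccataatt
Tfrc, 3′ region, element 2, chr16:32631598-32631626, + strand: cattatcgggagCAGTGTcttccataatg
Tfrc, 3′ region, element 3, chr16:32631663-32631691, + strand: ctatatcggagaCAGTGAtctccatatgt
Tfrc, 3′ region, element 4, chr16:32631710-32631738, + strand: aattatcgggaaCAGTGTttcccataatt
No match was found in the other 6 genes, which says only that this pattern is not in their annotated untranslated regions. The search misses elements whose stem or loop departs from the pattern. It therefore does not show that any of these genes, Slc11a2 included, lacks an iron-responsive element. The FPKM values count messages and do not measure translation.

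Of the 9 genes that passed the filter on low values (1 FPKM or more in at least 4 libraries), 7 rose and 2 fell with the cocktail. Lcn2 rose 7.89-fold, Slc11a2 4.21-fold, Steap4 3.88-fold, Cp 3.04-fold, Fth1 2.17-fold, Trf 2.14-fold and Tfrc 1.65-fold. Hmox1 fell to 52.8% of its untreated level and Ftl1 to 93.3%. Slc40a1 lay under the filter and was not tested in the main fit. The background was high: 67.7% of the 11845 tested genes were called, 26.6% upward and 41.1% downward. After rescaling of the libraries by median ratios 51.8% of all calls were rises in place of 39.3%. Without the rescaling, 4.08% of genes were called with a rise and 4.56% with a fall of at least 1 on the log2 scale, and among the 9 members 5 had such a rise and none such a fall. The groups did not overlap in any of the 10 genes, as in 62.7% of all genes tested.

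**Figure D1:**
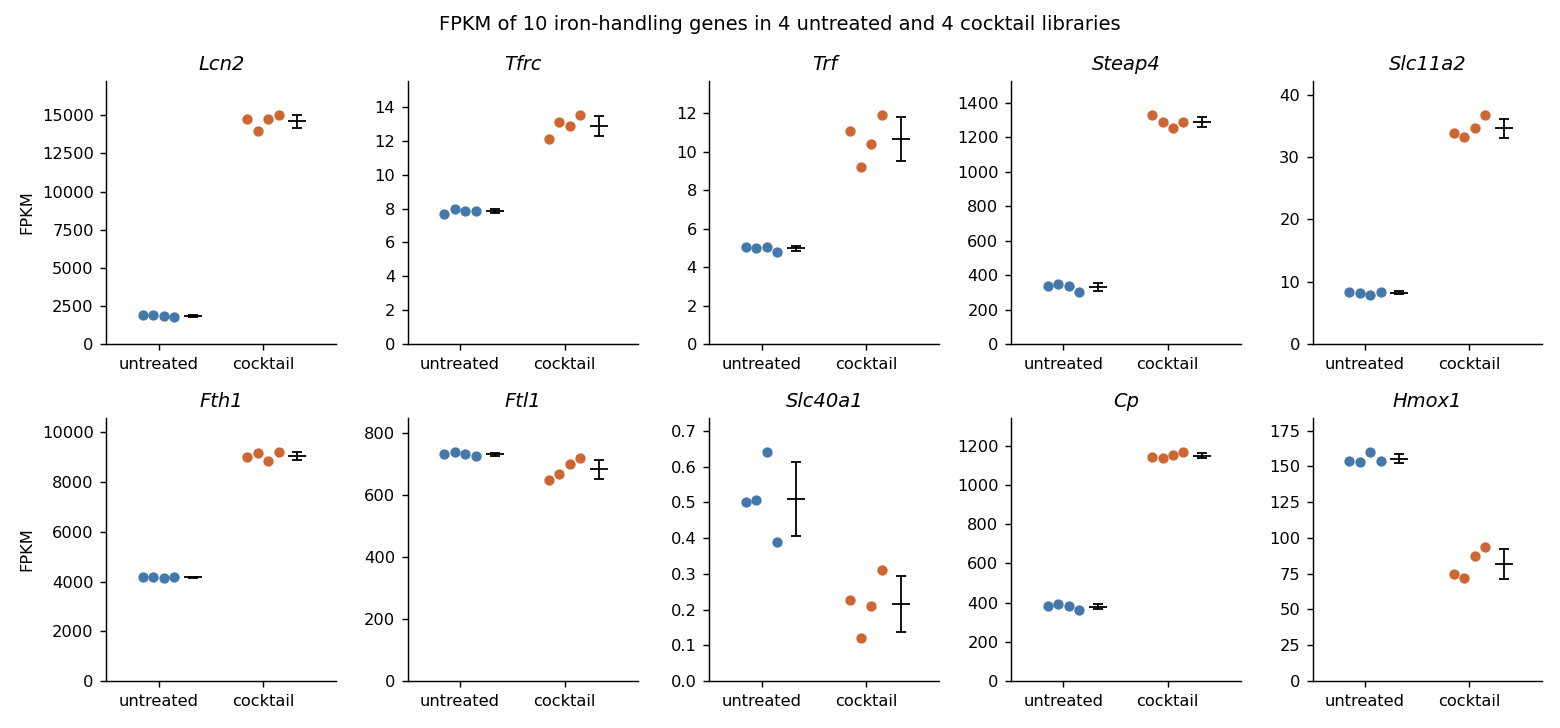
FPKM of each of the 10 genes in 4 untreated (blue) and 4 cocktail (orange) libraries, each panel with its own linear axis from 0. Points are libraries 1 to 4 from left to right, and the bar beside them is the mean with the SD. In 7 panels the cocktail libraries stand above the untreated ones, and in Ftl1, Slc40a1 and Hmox1 below them.

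Lcn2 was the most abundant gene of the treated cells. It stood at 1889, 1887, 1871 and 1761 FPKM in untreated libraries 1 to 4 and at 14746, 14004, 14746 and 14997 in cocktail libraries 1 to 4. The lowest cocktail library was thus far above the highest untreated one, and the means were 1852 ± 61.3 and 14623 ± 429.6 FPKM (SD, n = 4), a ratio of 7.89. On the log2 scale the change was 2.98, with a standard error (SE) of 0.039 (limma, adjusted p = 7.5e-14), which ranked 39 among the rises of all genes tested. By mean FPKM Lcn2 ranked 8 in untreated cells, where Fth1 ranked 1, and in cocktail cells Lcn2 ranked 1 and Fth1 ranked 2. The Lcn2 values rest on 30905 to 32054 fragments in an untreated library and 230814 to 259589 in a cocktail library.

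Since FPKM is a relative scale, the share taken by these genes bears on all others. The FPKM values of all genes summed to a mean of 325843 in untreated and 348548 in cocktail libraries, a difference of 22704. Lcn2 alone rose by 12771 FPKM and Fth1 by 4894. Without both genes the sums were 319824 and 324863. Lcn2 made up 0.568% of the summed FPKM in untreated and 4.20% in cocktail libraries. FPKM is scaled to fragments, however, and a short gene weighs more in summed FPKM than in fragments. Of all fragments, Lcn2 took 0.158% in untreated and 1.25% in cocktail libraries, and Fth1 0.393% and 0.854%.

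Neutrophils are another known source of Lcn2, and some of their markers were higher in the cocktail libraries. Of 7 neutrophil genes, Ly6g, Elane and Ngp were at 0 in all 8 libraries, and the list summed to 0 to 0.525 FPKM in untreated and 3.40 to 5.96 in cocktail libraries. The gene of the list above the filter was Camp, an antimicrobial peptide gene, at 0 to 0.087 FPKM in untreated libraries and 2.99, 4.75, 3.74 and 2.14 in cocktail libraries 1 to 4. Camp passed the filter through the cocktail libraries alone. S100a8, under the filter, was at 0 to 0.133 FPKM in untreated and 0.762 to 1.26 in cocktail libraries. S100a9, also under the filter, went the other way, at 0.393 FPKM in untreated library 1 and 0 in all others. Mpo was at 0.0203 FPKM in cocktail library 2 and at 0 in all others. Their part in the Lcn2 result was not tested. In bulk RNA such as this, a change in the number of cells of a type and a change in RNA per cell cannot be told apart.

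The genes listed as partners of lipocalin 2 fell. Lrp2 (megalin), an endocytic receptor reported to bind lipocalin 2, stood at 22.9, 23.2, 24.0 and 23.3 FPKM in untreated and 7.22, 8.17, 5.86 and 5.58 in cocktail libraries 1 to 4. Its log2 change was -1.67 (SE 0.088; limma, adjusted p = 7.6e-09). Slc22a17, the other reported receptor, fell from 33.6 ± 2.42 to 19.6 ± 1.60 FPKM (SD, n = 4; limma, adjusted p = 3.9e-07). Bdh2, an enzyme described in the synthesis of a mammalian siderophore, fell from 20.8 ± 0.242 to 12.1 ± 0.684 FPKM (SD, n = 4; limma, adjusted p = 9.4e-09). All 4 genes of this list were thus called, Lcn2 upward and 3 downward, against 67.7% of all genes tested called.

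The genes whose profile lay nearest to that of Lcn2 were Birc3, Aldh3a1, Mfsd7c, Vnn3 and Pik3r5. The measure was the Euclidean distance between log2(FPKM + 1) profiles over the 8 libraries, each centred on its untreated mean, and it was 0.206, 0.226, 0.231, 0.241 and 0.295 for these genes. All 5 were far less abundant than Lcn2. Birc3, which encodes an inhibitor of apoptosis, went from 5.11 ± 0.493 to 46.0 ± 1.37 FPKM (SD, n = 4), which is 9.0-fold. Aldh3a1, Vnn3 and Pik3r5 started from 0.189, 0.104 and 0.463 FPKM and reached 8.81, 7.39 and 10.1, so their folds of 46.7, 71.2 and 21.8 were far above that of Lcn2, and the likeness holds on the scale with 1 added. Mfsd7c is a heme transporter gene that returns among the heme genes. Aldh3a1, Mfsd7c, Vnn3 and Pik3r5 passed the filter through the cocktail libraries alone, so they could enter only as rises.

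Among known activators of Lcn2 in inflammation, all 5 listed genes rose, against 26.6% of all genes tested. This list was chosen with earlier results of these data known, so the count is a description only. Cebpb and Nfkbiz, which encode a C/EBP factor and the nuclear cofactor IκBζ, rose from 30.8 ± 3.71 to 121 ± 4.68 and from 14.0 ± 0.872 to 48.2 ± 3.06 FPKM (SD, n = 4; limma, adjusted p = 1.8e-10 and 5.2e-11). Stat3, Cebpd and Rela, the gene of the NF-kB subunit p65, rose 1.83-, 1.66- and 1.62-fold. The promoters of Lcn2 and Steap4 are printed as examples of genes that rose strongly, as the 250 bases before the RefSeq start site in GRCm38.p6. Capitals mark matches on either strand to the NF-kB consensus and to the C/EBP pattern TTNNGNAA.
Lcn2, chr2:32387740-32387989, - strand: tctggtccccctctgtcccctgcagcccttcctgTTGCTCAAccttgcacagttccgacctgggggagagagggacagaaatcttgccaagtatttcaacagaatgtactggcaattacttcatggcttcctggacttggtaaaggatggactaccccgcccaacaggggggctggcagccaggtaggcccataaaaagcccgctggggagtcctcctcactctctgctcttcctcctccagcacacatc
Steap4, chr5:7960222-7960471, + strand: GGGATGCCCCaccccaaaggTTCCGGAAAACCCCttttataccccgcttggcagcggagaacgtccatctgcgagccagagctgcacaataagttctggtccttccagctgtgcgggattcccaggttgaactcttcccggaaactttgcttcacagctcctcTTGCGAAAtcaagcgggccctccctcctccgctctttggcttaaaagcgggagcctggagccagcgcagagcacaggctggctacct
The Lcn2 window holds a C/EBP match 216 to 209 bases before the start and no NF-kB match. The Steap4 window holds NF-kB matches 250 to 241 and 226 to 217 bases before the start and C/EBP matches at 230 to 223, which overlaps the second NF-kB match, and at 87 to 80. Of 27025 promoters of the same length, 3.75% held the NF-kB pattern and 36.9% the C/EBP pattern. The windows of Cp and Fth1, which also rose, held C/EBP but no NF-kB matches, and that of Ftl1, which did not rise, held 1 match to each. The windows of Tfrc, a further gene that rose, held no match to either pattern. For Trf, Slc11a2, Slc40a1 and Hmox1 no promoter sequence was available to search. A match is a description of letters and not a site of binding.

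Of the uptake genes, the receptor, its ligand, the reductase gene Steap4 and the transporter all rose. Tfrc, the transferrin receptor, was at 7.69, 7.98, 7.83 and 7.86 FPKM in untreated and 12.1, 13.1, 12.9 and 13.5 in cocktail libraries 1 to 4. The groups did not overlap, and its log2 change was 0.65 (SE 0.039; limma, adjusted p = 2.4e-08). Trf, its ligand, was at 5.06, 5.0, 5.04 and 4.82 FPKM in untreated and 11.1, 9.21, 10.4 and 11.9 in cocktail libraries 1 to 4, a log2 change of 0.96 (SE 0.062; limma, adjusted p = 5.6e-08). Its cocktail libraries spread more than its untreated ones, with SDs of 1.12 and 0.11 FPKM. Trf is also a gene of oligodendrocytes and of the choroid plexus: Mog was at 0 in all libraries and Mbp at 0.242 to 0.494 FPKM, but Olig1 and Cnp fell from 139 to 74.8 and from 47.8 to 25.4 FPKM, and Pdgfra, a gene of precursors, rose from 0.934 to 3.07. Of the choroid plexus genes Ttr was at 0 to 0.519 FPKM, while Folr1 fell from 6.48 to 1.44 and Otx2 from 2.99 to 1.99. The 10 listed genes of the oligodendrocyte lineage summed to 212 to 226 FPKM in untreated and 123 to 127 in cocktail libraries, most of it from Olig1. Of the 6 tested 1 rose and 4 fell (all genes tested: 26.6% and 41.1%). The part of the oligodendrocyte and choroid plexus genes in the Trf result was not tested.

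Steap4, a metalloreductase of iron and copper, was at 339, 351, 338 and 302 FPKM in untreated and 1328, 1288, 1253 and 1289 in cocktail libraries 1 to 4. It rose 3.88-fold, with a log2 change of 1.96 (SE 0.043; limma, adjusted p = 4.5e-12). The other STEAP genes stood at 5.20 FPKM or less in every library and did not rise. Steap2 fell from 4.52 ± 0.094 to 3.51 ± 0.397 FPKM (SD, n = 4; limma, adjusted p = 0.00095), while Steap1 and Steap3 were not called (limma, adjusted p = 0.42 and 0.10). Hfe, whose protein binds the transferrin receptor, rose from 18.8 to 29.1 FPKM, and Myo10, an unconventional myosin of the same list, fell from 46.4 to 24.1. Of the 10 tested genes of the transferrin cycle and its reductases 4 rose and 3 fell, so 70% were called, near the 67.7% of all genes tested, and Tfr2, Ltf and Mfi2 lay under the filter.

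Slc11a2, the divalent metal transporter DMT1, stood at 8.35, 8.26, 7.87 and 8.41 FPKM in untreated and 33.9, 33.3, 34.6 and 36.7 in cocktail libraries 1 to 4. This 4.21-fold rise had a log2 change of 1.95 (SE 0.037; limma, adjusted p = 1.5e-12). The gene has transcripts with different 3′ ends, which the values add together. The zinc and iron importers rose beside it. Slc39a14 (ZIP14) went from 7.54, 7.35, 7.60 and 7.38 to 33.2, 30.3, 31.5 and 34.4 FPKM in libraries 1 to 4, a 4.34-fold rise in mean (limma, adjusted p = 2.7e-12). Slc39a8 (ZIP8) rose from 0.655 ± 0.060 to 2.5 ± 0.281 FPKM (SD, n = 4; limma, adjusted p = 3.4e-08). As Slc39a8 reached 1 FPKM in cocktail libraries alone, it could enter the test only as a rise.

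Slc11a1, the related transporter of phagocytes, differed within the treated group. It stood at 1.18 and 1.17 FPKM in cocktail libraries 1 and 2 and at 3.54 and 3.73 in libraries 3 and 4, against 0.527 to 1.02 in untreated libraries (limma, adjusted p = 0.011). Without cocktail libraries 3 and 4 the estimate on the log2 scale was 0.27 (limma, adjusted p = 0.046), against 0.82 with all libraries. The sum of the 10 microglial markers was higher in the same libraries, at 14.2, 15.4, 33.6 and 46.5 FPKM in cocktail libraries 1 to 4 and 10.6 to 13.2 in untreated libraries. Of the 6 tested 4 rose, while C1qa and C1qb were not called (limma, adjusted p = 0.21 and 0.16). Thus 66.7% of them were called, near the 67.7% of all genes tested. P2ry12 and Tmem119, under the filter, stayed under 1 FPKM with overlapping groups. Fcer1g was at 3.25, 3.46, 10 and 12.4 FPKM in cocktail libraries 1 to 4. Their part in the result was not tested. Of the 6 divalent metal transporter genes 4 rose and 2 fell, where 26.6% of all genes tested rose and 41.1% fell.

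The storage genes moved apart. Fth1 stood at 4166, 4200, 4137 and 4167 FPKM in untreated and 9008, 9180, 8850 and 9209 in cocktail libraries 1 to 4, a 2.17-fold rise with a log2 change of 1.12 (SE 0.034; limma, adjusted p = 5.8e-11). The untreated libraries lay close together, with an SD of 25.9 FPKM, and far below the cocktail libraries. Ftl1 stood at 731, 738, 731 and 726 FPKM in untreated and 648, 666, 698 and 718 in cocktail libraries 1 to 4, a log2 change of -0.10 (SE 0.034; limma, adjusted p = 0.020). The call on this small fall did not hold when libraries were rescaled by median ratios (-0.024; limma, adjusted p = 0.52), without cocktail library 1 (limma, adjusted p = 0.059), without cocktail libraries 1 and 2 (limma, adjusted p = 0.16) and without the filter (limma, adjusted p = 0.053). The cocktail values were higher in libraries 3 and 4, those with more microglial marker signal, and the part of that signal was not tested. Ferritin genes have processed copies in the mouse genome, among which the authors' counting could have split fragments, so both levels are uncertain to that degree.

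The ratio of heavy to light chain messages, which keeps the uncertainty from processed copies, was also read in each library. It was 5.70, 5.69, 5.66 and 5.74 in untreated and 13.9, 13.8, 12.7 and 12.8 in cocktail libraries 1 to 4. The ratio rose 2.33-fold without overlap. The exact two-sided permutation test over 70 assignments gave p = 0.0286 and an adjusted p of 0.0286 over 3 ratios. This is the smallest p it can give with 4 libraries in each group. As Fth1 was higher and Ftl1 lower in every cocktail library, the p was fixed by the single genes and adds no support. Tfrc against Fth1, uptake receptor against storage chain, went from 0.00188 ± 2.5e-05 to 0.00142 ± 5.5e-05 (SD, n = 4). The ratio fell although both genes rose (p = 0.0286 in the exact permutation test, and 0.0286 after adjustment).

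**Figure D2:**
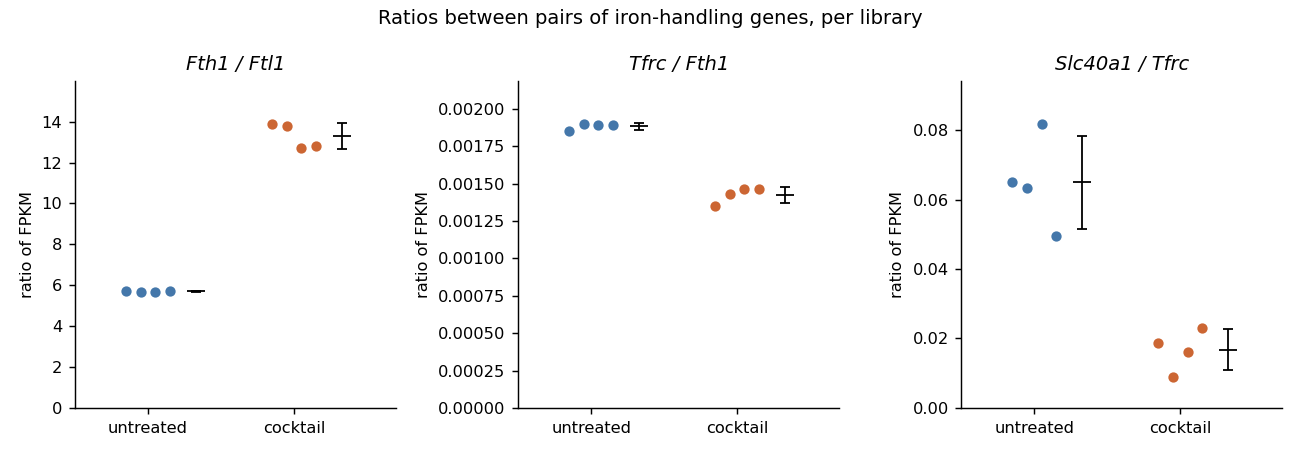
Ratio of FPKM of Fth1 to Ftl1, Tfrc to Fth1 and Slc40a1 to Tfrc in each of 4 untreated (blue) and 4 cocktail (orange) libraries, with the mean and SD beside them, on linear axes from 0. The Fth1 to Ftl1 ratio lies between 5.66 and 5.74 in untreated and between 12.7 and 13.9 in cocktail libraries, and the other ratios are lower in all cocktail libraries.

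Other genes around ferritin moved in both directions. Scara5, described as a receptor for ferritin, rose from 0.479 ± 0.093 to 2.65 ± 0.087 FPKM (SD, n = 4; limma, adjusted p = 2.2e-09). It reached 1 FPKM in cocktail libraries alone, so it could enter the test only as a rise. Pcbp3, of the family of iron chaperones that load ferritin, rose from 12.7 to 21.8 FPKM, and the main chaperone gene Pcbp1 from 122 to 136. Pcbp4, of the same family, fell from 43.0 ± 1.67 to 33.1 ± 1.04 FPKM (SD, n = 4; limma, adjusted p = 1.5e-06). Ncoa4, which directs ferritin to lysosomes, was at 24.9 ± 0.781 and 23.4 ± 0.790 FPKM with overlapping groups (SD, n = 4; limma, adjusted p = 0.035). Of 8 tested genes of this list 5 rose and 3 fell (all genes tested: 26.6% and 41.1%), Ftmt and Timd2 lay under the filter, and Ftl2 was not analysed here.

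The export genes were ceruloplasmin, which was abundant, and ferroportin, which was scarce. Cp stood at 384, 390, 381 and 360 FPKM in untreated and 1142, 1136, 1153 and 1168 in cocktail libraries 1 to 4, a 3.04-fold rise with a log2 change of 1.60 (SE 0.030; limma, adjusted p = 1.4e-12). The membrane-bound and secreted forms of ceruloplasmin were not separated. Hephl1, a further ferroxidase gene, lay under the filter. Cp overlaps Hps3 on the other strand, and Hps3 was at 2.09 ± 0.188 and 1.28 ± 0.215 FPKM (SD, n = 4). Heph, the other ferroxidase tested, fell from 3.12 ± 0.188 to 1.52 ± 0.134 FPKM (SD, n = 4; limma, adjusted p = 4.0e-07).

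Slc40a1 was at 0.502, 0.507, 0.641 and 0.388 FPKM in untreated and 0.228, 0.119, 0.209 and 0.31 in cocktail libraries 1 to 4. These values rest on 34, 34, 45 and 28 fragments and on 16, 8, 15 and 22 fragments, so counting error is large. Ferroportin was thus the lowest of the 10 genes in both groups, and all 4 cocktail libraries lay below all untreated ones. Without the filter on low values it was called lower, with a log2 change of -0.31 on the log2(FPKM + 1) scale (limma, adjusted p = 0.0017). Its change with a pseudocount of 0.1 was -0.97, since a pseudocount of 1 exceeds the values themselves. The ratio of Slc40a1 to Tfrc went from 0.065 ± 0.013 to 0.017 ± 0.0059 (SD, n = 4). Its exact permutation p was 0.0286, and 0.0286 after adjustment. That p too was fixed by the single genes, as Slc40a1 was lower and Tfrc higher in every cocktail library. On the log2 scale the ratio changed by -2.01, or by -0.96 with 1 added to each FPKM.

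**Figure D3:**
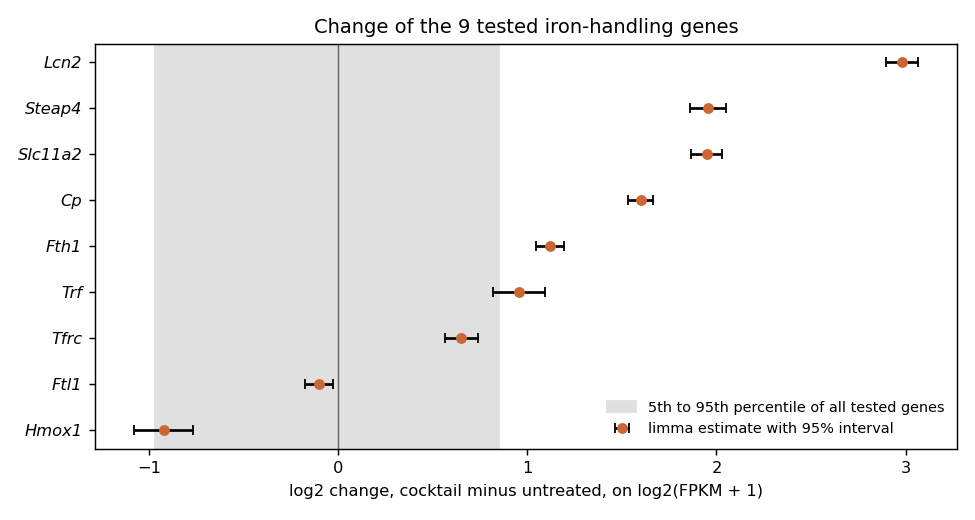
Log2 change of the 9 tested genes, cocktail minus untreated on log2(FPKM + 1), as the limma estimate with its 95% interval. The shaded band holds the 5th to the 95th percentile of all 11845 tested genes, from -0.97 to 0.85, and 6 of the 9 genes lie to the right of it.

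Hmox1 fell while other heme genes rose or fell. It stood at 154, 153, 160 and 154 FPKM in untreated and 74.4, 71.8, 87.5 and 93.9 in cocktail libraries 1 to 4. The groups did not overlap, and the log2 change was -0.92 (SE 0.071; limma, adjusted p = 2.4e-07). The cocktail libraries with more microglial marker signal, 3 and 4, were the higher ones for Hmox1, whose fall was larger without them (log2 change -1.07; limma, adjusted p = 1.0e-09). Hmox2, the constitutive form, was at 20.9 ± 1.24 and 21.3 ± 0.887 FPKM and was not called (SD, n = 4; limma, adjusted p = 0.66).

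The heme transporter genes Flvcr1 and Flvcr2, listed in the table under the older names Mfsd7b and Mfsd7c, changed in opposite directions. Mfsd7b, described as a heme exporter, stood at 13.1, 14.4, 12.4 and 11.9 FPKM in untreated and 4.45, 4.37, 4.80 and 4.46 in cocktail libraries 1 to 4. Its log2 change was -1.34 (SE 0.056; limma, adjusted p = 9.7e-10). Mfsd7c went from 0.783, 0.717, 0.828 and 0.611 to 12.2, 10.4, 12.3 and 13 FPKM in libraries 1 to 4, a 16.3-fold rise in mean (limma, adjusted p = 7.0e-12). Since it reached 1 FPKM in cocktail libraries alone, Mfsd7c could enter the test only as a rise. Both proteins have also been described as choline transporters.

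Hp, haptoglobin, which captures free hemoglobin, rose from 0.225 ± 0.027 to 5.89 ± 0.663 FPKM (SD, n = 4; limma, adjusted p = 3.0e-11), and the biliverdin reductase gene Blvrb from 13 to 18.9. Hp reached 1 FPKM in cocktail libraries alone and could enter the test only as a rise. Of 11 tested genes of heme breakdown and transport 6 rose and 3 fell (all genes tested: 26.6% and 41.1%), and Hpx and Cd163 lay under the filter.

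Most genes listed as regulators of iron genes rose. Bach1, a heme-sensing repressor of Hmox1, stood at 5.86, 5.66, 5.49 and 5.82 FPKM in untreated and 18.7, 19.6, 21.5 and 21.4 in cocktail libraries 1 to 4 (limma, adjusted p = 3.6e-11). Nfe2l2, the gene of the activator NRF2, rose from 185 ± 3.6 to 265 ± 5.59 FPKM (SD, n = 4; limma, adjusted p = 5.6e-09). The hypoxia-inducible factor genes Hif1a and Epas1 rose 2.64- and 2.02-fold. Aco1, which encodes iron regulatory protein 1, rose from 30.3 to 38.8 FPKM (limma, adjusted p = 1.2e-06), while Ireb2, for iron regulatory protein 2, was at 14.1 ± 0.666 and 14.9 ± 0.314 with overlapping groups and was not called (SD, n = 4; limma, adjusted p = 0.088). Of the 7 genes of this list 6 rose and none fell, beside 26.6% and 41.1% of all genes tested.

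Hepcidin, the hormone that removes ferroportin from the cell surface, was close to absent. Its gene Hamp was at 0 in 5 of 8 libraries and at most at 0.261 FPKM, and Hamp2, Hfe2, Tmprss6 and Fam132b also lay under the filter. Bmp6, which encodes a ligand that induces hepcidin in liver, fell from 71.2, 73.0, 63.6 and 62.9 to 22.3, 22.7, 19.1 and 17.8 FPKM in libraries 1 to 4 (log2 change -1.68; limma, adjusted p = 1.8e-09). Bmp2 rose from 0.293 ± 0.059 to 2.28 ± 0.235 FPKM (SD, n = 4; limma, adjusted p = 5.0e-09). Having reached 1 FPKM in cocktail libraries alone, Bmp2 could enter the test only as a rise.

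**Figure D4:**
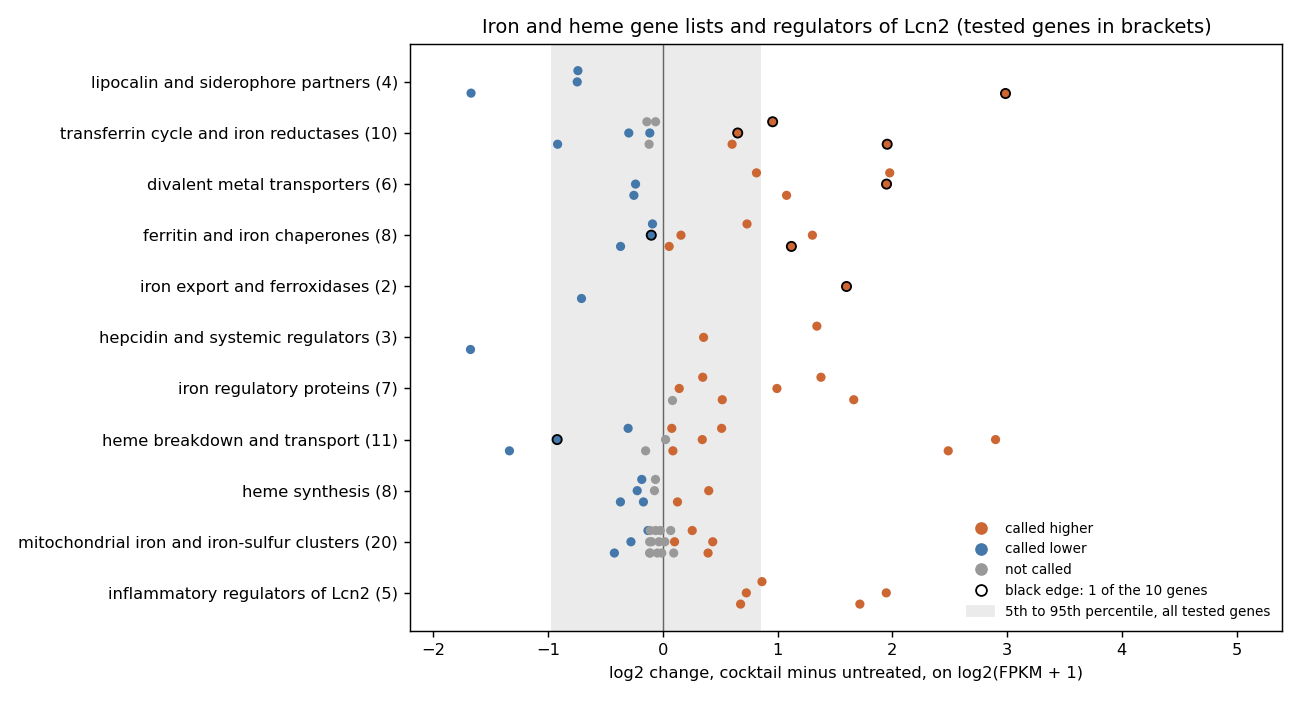
Log2 change of each tested gene, cocktail minus untreated on log2(FPKM + 1), in 10 lists of iron and heme genes and 1 of regulators of Lcn2, with the number of tested genes in brackets. Orange points were called higher, blue lower and grey not called, black edges mark the 9 tested members of the gene set, and the shaded band holds the 5th to the 95th percentile of all tested genes.

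Over the 10 iron and heme lists, 79 of 94 genes were tested, of which 35 rose, 23 fell and 21 were not called. Among the rises, Scara5, Slc39a8, Bmp2, Mfsd7c and Hp reached 1 FPKM in cocktail libraries alone and could enter only as rises. The share that rose was 44.3% against 26.6% of all genes tested, and the share that fell 29.1% against 41.1%. The median log2 change was 0.017 over these lists and -0.050 over all genes. Without the 10 members, 28 of 70 genes rose and 21 fell, with a median of -0.028. With the regulators of Lcn2 included, 40 of 84 genes rose and 23 fell. The lists were chosen with earlier results of these data known, so these shares are a description only.

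The order of levels changed with the treatment. In untreated cells the mean FPKM fell from Fth1 through Lcn2, Ftl1, Cp, Steap4, Hmox1, Slc11a2, Tfrc and Trf to Slc40a1, and neighbours in this order overlapped between libraries for Slc11a2 and Tfrc alone. In cocktail cells the order was Lcn2, Fth1, Steap4, Cp, Ftl1, Hmox1, Slc11a2, Tfrc, Trf and Slc40a1, with no overlap between neighbours. Steap4 passed Cp, and both passed Ftl1.

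The genes lie at the following positions in GRCm38.p6, from RefSeq. Lcn2 lies on chromosome 2 from 32384637 to 32387739, Steap4 on chromosome 5 from 7960472 to 7982213 and Slc11a2 on chromosome 15 from 100387898 to 100424209. Cp lies on chromosome 3 from 19956933 to 20009750, Fth1 on chromosome 19 from 9980600 to 9985111 and Hmox1 on chromosome 8 from 75093618 to 75100593. Ftl1 lies on chromosome 7 from 45457944 to 45459886, Tfrc on chromosome 16 from 32608896 to 32632794, Trf on chromosome 9 from 103208876 to 103230286 and Slc40a1 on chromosome 1 from 45908070 to 45926532. Each value covers a whole gene, with no split by exon or transcript. Trf, Slc11a2 and Ftl1 overlap gene models without a row in the table, Gm20425 for Trf, Gm5475 for Slc11a2, and Gm22133 and Gm10252 for Ftl1.

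The libraries held 19195898 to 20640490 fragments. Astrocyte markers summed to 979 to 1110 FPKM in untreated and 823 to 845 in cocktail libraries. Of these 8 genes 2 rose and 6 fell (all genes tested: 26.6% and 41.1%). S100b, which fell, reached 1 FPKM in untreated libraries alone and could enter the test only as a fall. Markers of endothelium summed to 4.81 to 5.34 FPKM in untreated and 1.38 to 1.80 in cocktail libraries. Those of neurons, mural cells, fibroblasts, and ependyma and choroid plexus summed to 139 to 157, 557 to 627, 102 to 126 and 122 to 133 FPKM in untreated libraries. In cocktail libraries these sums were 49.5 to 56.2, 123 to 138, 80.3 to 111 and 68.6 to 80.9 FPKM. Single genes made up most of several sums, with Acta2 at 581, Stmn2 at 125 and Foxj1 at 116 FPKM in the mean of untreated libraries for mural cells, neurons and ependyma. Among fibroblast markers Lum and Dcn rose, from 0.237 to 7.69 and from 1.45 to 8.31 FPKM, and 2 others fell. Their part in the results was not tested.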

How the data were processed

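The authors deposited FPKM values for 21878 genes in 8 libraries, 4 untreated and 4 cocktail, which were grouped by sample title. TRIzol RNA and a strand-marking mRNA kit were used, per the labels' protocols. The authors named DESeq and mm10, per the submitters' processing notes. The aligner, the counter and the strand setting were not given in the sources used here. The members and lists were chosen with earlier results of these data known.

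Groups were compared with limma 3.58.1 in R 4.3.3, with a variance trend, on log2(FPKM + 1). The 11845 genes entered that reached 1 FPKM in 4 or more libraries. A gene under 1 FPKM in all untreated libraries could thus enter only as a rise. Of the genes named, Scara5, Slc39a8, Bmp2, Mfsd7c, Hp, Camp, Lum, Aldh3a1, Vnn3 and Pik3r5 were among such genes. In the same way, a gene under 1 FPKM in all cocktail libraries could enter only as a fall, as the astrocyte marker S100b did. A gene was called at an adjusted p (Benjamini-Hochberg, two-sided, over all of them) under 0.05. Log2 changes on this scale understate those of low genes.

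Whole fragments were recovered for 16557 genes from ratios of FPKM within a gene (relative tolerance 1e-13). They held 99.86% to 99.89% of each library total. The chi-square per gene between replicates was 2.11 to 6.79, above the 1 of sampling noise, so each library counted as 1 sample.

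All members were named. Of each list, called genes with a log2 change of at least 0.5 were named, up to 6, and genes under the filter by name only. Steap1, Steap2, Steap3, Pcbp1, Pcbp4, Ncoa4, Hmox2, Aco1, Ireb2, Hamp, Hps3, the single marker genes and the genes named of the heme synthesis and cluster lists were added after their values were seen. The 99 list genes were matched by symbol or, for Mfi2, Hfe2, Fam132b, Mfsd7b and Mfsd7c, by NCBI gene number. Sequences came from RefSeq (GRCm38.p6) and GENCODE M21 (GRCm38). Alternatives were other scaling, pseudocount, filter, trend, a replicate block, voom on fragments and left-out libraries.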

Additional observations from a re-analysis of the deposited data

Results flagged for a closer look

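In groups of 4 libraries, a library was picked out when its gap to the next value exceeded Dixon's 95% critical share of the range of the group. Of the 20 groups examined (10 genes in untreated and cocktail cells), 2 had such a library, where chance gives about 1 in 20. Lcn2 stood at 1761 FPKM in untreated library 4, against 1871 to 1889 in the other untreated libraries. Hmox1 stood at 159.9 FPKM in untreated library 3, against 153 to 154 in the others. Both values lay on the untreated side of the gap between the groups.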

How the results depend on the processing

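For 8 of the 10 genes the direction and the call held in all 16 alternatives, with log2 changes of 2.96 to 3.06 for Lcn2, 1.91 to 2.03 for Steap4, 1.58 to 1.68 for Cp, 1.11 to 1.20 for Fth1, 0.62 to 0.72 for Tfrc, 0.89 to 1.09 for Trf, 1.91 to 2.07 for Slc11a2 and -1.07 to -0.77 for Hmox1. The fall of Ftl1 (-0.10) was no longer called after median-ratio rescaling (-0.024), without the filter (-0.10), without cocktail library 1 (-0.076) and without cocktail libraries 1 and 2 (-0.047), and leaving out 1 library at a time gave -0.13 to -0.076. The cause was not tested. Slc40a1 was called without the filter (-0.31), where it could enter the test. The counts of list genes ranged from 36 to 43 called higher and 19 to 26 called lower. The 3 ratios kept their direction throughout, at 1.16 to 1.28, -0.47 to -0.36 and -2.29 to -0.96 on the log2 scale. With 2 cocktail libraries left out the smallest exact permutation p is 0.0667, and with 4 pairs it is 0.125, so these cannot pass 0.05. With the replicate block, 3121 genes were called higher and 4829 lower against 3151 and 4872 without it, and no member changed its call. Same-numbered libraries correlated at -0.044, 0.078, 0.086 and -0.0071 in their deviations from the group means, and libraries 2 and 3 alone correlated best with their own number. Little shared deviation was thus seen, but such values cannot show whether libraries were paired by culture or preparation. Depth limits Slc40a1, which had 8 to 45 fragments per library.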

Other observations

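Most genes listed for mitochondrial iron and iron-sulfur clusters were not called. The list is not confined to mitochondrial genes and includes Nubp1, Nubp2 and Ciao1. Of its 20 tested genes, 4 rose, 3 fell and 13 were not called, and none changed by 1 on the log2 scale. This was 35% called, against 67.7% of all genes tested. The scaffold gene Iscu rose from 72.5 ± 2.48 to 98.3 ± 2.35 FPKM (SD, n = 4; limma, adjusted p = 1.1e-07), while Lyrm4, a partner of the cysteine desulfurase, fell from 8.47 ± 0.360 to 6.08 ± 0.579 (SD, n = 4; limma, adjusted p = 4.4e-05).

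Of 8 tested heme synthesis genes 2 rose and 4 fell, or 25% and 50%, near the 26.6% and 41.1% of all genes tested. Alad, which encodes an early enzyme of the pathway, fell from 3.88 ± 0.298 to 2.78 ± 0.080 FPKM (SD, n = 4; limma, adjusted p = 6.2e-05). The median log2 change of this list was -0.12 and that of the list of mitochondrial iron and iron-sulfur clusters -0.040.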
